A study of Mus musculus with 4 samples.

Results

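The transcytosis and caveola genes are 8 of the 32286 features counted in single cells from the brain vasculature of *Angpt2*-KO and *Angpt2*-WT mice. They were taken by gene symbol and are *Mfsd2a*, *Cav1*, *Cav2*, *Cavin1*, *Cavin2*, *Cavin3*, *Plvap* and *Tfrc*, each present as 1 feature in every library. The study asked what loss of angiopoietin-2, a ligand of the endothelial TIE2 receptor, does to the brain vasculature and its barrier. Vessel fragments were pulled from the cerebrum with beads carrying an antibody to the endothelial protein PECAM1, dissociated, and sequenced with a droplet 3′ assay that counts each captured RNA molecule once as a unique molecular identifier (UMI). There were 4 mice of 3 months of age on a C57BL6/J background. WT1 (female) and WT2 (male) were *Angpt2*+/+ littermates, and KO1 (female) and KO2 (male) were *Angpt2*-/- animals that lacked exon 4 of *Angpt2* in all tissues from the germ line on, after a floxed allele had been crossed to *Pgk*-Cre. The deletion was not limited to the endothelium or to adult life, and each genotype was represented by 2 mice, 1 of each sex.

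Brain endothelial cells (ECs) keep blood proteins out of the brain in part by holding back transcytosis, the carriage of molecules across the cell in vesicles. MFSD2A, a transporter of lysophosphatidylcholine with an attached omega-3 fatty acid, is known to suppress the formation of caveolae in these cells through the lipid makeup of the membrane. Caveolae are flask-shaped pits built from the membrane proteins CAV1 and CAV2 and coated by the cavins: CAVIN1 is needed for their formation, and CAVIN2 and CAVIN3 are further coat proteins. PLVAP forms the diaphragms of caveolae and fenestrae and is known as a marker of leaky or fenestrated endothelium, whereas TFRC, the transferrin receptor, takes up iron-loaded transferrin through clathrin-coated pits and is abundant in the capillaries of the brain.

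On the GRCm38 build, *Mfsd2a* lies at chr4:122946850-122961188 on the minus strand, *Tfrc* at chr16:32608920-32632794 on the plus strand and *Plvap* at chr8:71497765-71511752 on the minus strand. *Cav2* (chr6:17281185-17289115) and *Cav1* (chr6:17306335-17341452) are neighbours on the plus strand. *Cavin1* lies at chr11:100956733-100970887 on the minus strand, *Cavin2* at chr1:51289126-51302960 on the plus strand and *Cavin3* at chr7:105480083-105482300 on the minus strand. Exons of *Cav1*, *Cav2*, *Cavin2*, *Cavin3* and *Plvap* overlap a gene on the opposite strand. The paper names the library kit and Cell Ranger, and the use of strand in counting was not given in the sources used here. Whether reads of the partners entered the counts of these 5 genes was not checked.

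*Mfsd2a*, *Cavin2* and *Tfrc* were lower together in *Apln*-positive ECs than in the other ECs of the KO mice, so the 250 bases before the RefSeq start listed first for each gene are shown here, 5′ to 3′ on the gene's strand (RefSeq, GRCm38.p6). Windows were listed for 6 of the 8 genes. Capitals mark matches, on either strand, to 5 short motifs. These were CTTTGA, the core read by the TCF/LEF factors of Wnt signalling, which maintains the barrier; GGGCGG, the GC box; TGACGTCA, the cyclic AMP response element; ACGTG, the core read by hypoxia-inducible factors; and the box named for its letters CCAAT.
Mfsd2a: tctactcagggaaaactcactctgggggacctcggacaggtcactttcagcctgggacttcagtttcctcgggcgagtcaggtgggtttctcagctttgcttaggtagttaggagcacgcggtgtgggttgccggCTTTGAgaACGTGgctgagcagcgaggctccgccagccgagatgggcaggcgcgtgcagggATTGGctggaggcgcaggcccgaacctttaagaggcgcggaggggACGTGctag
Cavin2: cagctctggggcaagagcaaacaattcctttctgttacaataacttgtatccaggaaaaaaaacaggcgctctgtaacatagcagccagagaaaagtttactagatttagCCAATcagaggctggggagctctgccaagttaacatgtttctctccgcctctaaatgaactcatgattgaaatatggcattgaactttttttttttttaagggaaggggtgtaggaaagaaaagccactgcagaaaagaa
Tfrc: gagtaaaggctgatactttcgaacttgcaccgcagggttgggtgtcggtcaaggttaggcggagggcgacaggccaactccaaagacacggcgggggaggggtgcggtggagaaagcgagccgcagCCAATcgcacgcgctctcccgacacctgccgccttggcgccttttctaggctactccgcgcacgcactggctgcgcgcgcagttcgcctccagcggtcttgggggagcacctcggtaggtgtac
These windows span chr4:122961189-122961438 on the minus strand for *Mfsd2a*, chr1:51288876-51289125 on the plus strand for *Cavin2* and chr16:32608646-32608895 on the plus strand for *Tfrc*. The *Mfsd2a* window held 1 match to CTTTGA, 115 bases before the start, and 2 to ACGTG. All 3 windows held 1 CCAAT match, which was the only match in those of *Cavin2* and *Tfrc*. A second RefSeq window listed for *Tfrc*, which starts within the first, held 1 GC box, 35 bases before its start, 1 ACGTG match and no CCAAT match. CTTTGA was found in 13.8%, ACGTG in 16.6% and CCAAT in 33.8% of 32851 windows of the same length. The *Cavin2* window had a GC content of 40.4%, against 61.6% for *Mfsd2a* and 64.8% for *Tfrc*.

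After removal of cells with 500 or fewer genes or with 10% or more mitochondrial UMIs, 17999 of 19809 barcodes were kept, 2900 to 5742 per mouse, with 31753395 to 42903731 UMIs per mouse and a median of 4088.5 (KO2) to 7351.5 (KO1) UMIs per cell. A total of 66 kept cells carried a barcode that also occurred in another library. ECs of the brain type made up 14145 cells and expressed all 7 general endothelial markers. They were divided by clustering, from which the 8 genes were left out, into 2591 arterial-like, 6989 capillary-like, 721 venous-like and 128 angiogenic-like ECs and 3716 ECs without a name, whose cluster was led by *Lars2*, *Gm26917* and *Gm42418*. The angiogenic-like cluster was led by *Apln* and *Esm1* and held 84 cells of KO1, 42 of KO2 and 1 of each WT mouse. Other groups were 807 fenestrated endothelial-like, 603 pericyte-like, 705 smooth muscle-like and 906 microglia-like cells. *Angpt2* itself was counted at 10.7 and 9.93 CPM in WT and 64.9 and 41.0 CPM in KO brain ECs, and since the counted 3′ end is not part of exon 4, this level does not check the genotype. Levels below are CPM, the UMIs of a gene per 1000000 UMIs, each summed over the cells of a group in a mouse. A pair of values given for a genotype is in the order mouse 1, mouse 2. Counting intervals and floors cover counting error only. A fit without 1 mouse leaves 1 mouse of that genotype, so its p-value holds no spread between mice of that genotype.

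*Mfsd2a* was highest in the unnamed ECs (356 ± 63.8 CPM, mean ± SD, n = 4 mice), followed by arterial-like (274 ± 115) and capillary-like ECs (247 ± 85.4). These 3 ranges overlapped between neighbours in that order. Of the EC marker lists, the unnamed cluster scored highest on the capillary one. Its cells were shallow, with a median of 3038.5 UMIs against 3114 to 8655 in the clusters named capillary-like. With the other random starts of the clustering, the cluster led by *Lars2* was named capillary-like. *Mfsd2a* was far lower in venous-like ECs (38.3 ± 14.8 CPM, range 26.9 to 59.9). It was lowest in fenestrated cells (17.9 ± 7.73 CPM), the vessels that have no barrier. The fenestrated range of 10.5 to 26.8 CPM lay just under the venous range and just under that of microglia-like cells (26.9 to 34.5 CPM), which should lack the gene. The angiogenic-like ECs held 127 CPM in KO1 and 104 CPM in KO2.

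*Cav1* was highest in venous-like ECs (538 ± 12.9 CPM), and its range of 526 to 556 CPM was above that of every other group. Arterial-like (406 ± 13.1 CPM) and capillary-like ECs (389 ± 25.4 CPM) overlapped. Its partner *Cav2* varied least of the 8 genes, from 296 ± 32.9 CPM in capillary-like ECs to 175 ± 14.5 CPM in smooth muscle-like cells, and the 4 leading EC groups overlapped. *Cavin1* was led by smooth muscle-like cells (910.1 ± 126 CPM), then venous-like ECs (605 ± 71.9 CPM), and these 2 ranges overlapped neither each other nor those of lower groups. Of the EC and mural groups, the angiogenic-like ECs of the KO mice held the least *Cavin1* (248 to 260 CPM). Among the other coat genes, *Cavin2* was highest in fenestrated cells (981 ± 204 CPM). In the angiogenic-like ECs of KO1 and KO2 it stood at 89.0 and 57.7 CPM, within the 39.5 to 113 CPM counted in microglia-like cells and below every other EC group. *Cavin3* ran the other way in those cells. It stood at 348 CPM in KO1 and 408 CPM in KO2, overlapping only the fenestrated range (274 to 370 CPM), while capillary-like ECs held 119 ± 23.0 CPM and unnamed ECs 51.7 ± 10.8 CPM.

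*Plvap* separated fenestrated from barrier endothelium most widely. Fenestrated cells held 2856 and 3061 CPM in the WT and 3349.9 and 2954 CPM in the KO mice, whereas arterial-like and capillary-like ECs held 0.929 to 2.92 CPM. With each cell thinned to 2000 UMIs, 86.2% to 95.9% of fenestrated cells per mouse had a *Plvap* UMI (90.4% to 97.8% unthinned). *Tfrc* was highest in unnamed (663 ± 108 CPM) and capillary-like ECs (534 ± 68.3 CPM), which overlapped, and capillary-like ECs did not overlap the pericyte-like cells next in order (253 ± 36.5 CPM). Arterial-like ECs held 206 ± 37.8, venous-like 166 ± 33.7 and fenestrated cells 35.5 ± 10.2 CPM. *Mfsd2a* and *Tfrc* thus shared their places of highest and lowest level, and their log2 CPM correlated at r = 0.84 over 41 sums of a cell group in a mouse, a description in which the sums share mice and overlapping cells.

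**Figure D1:**
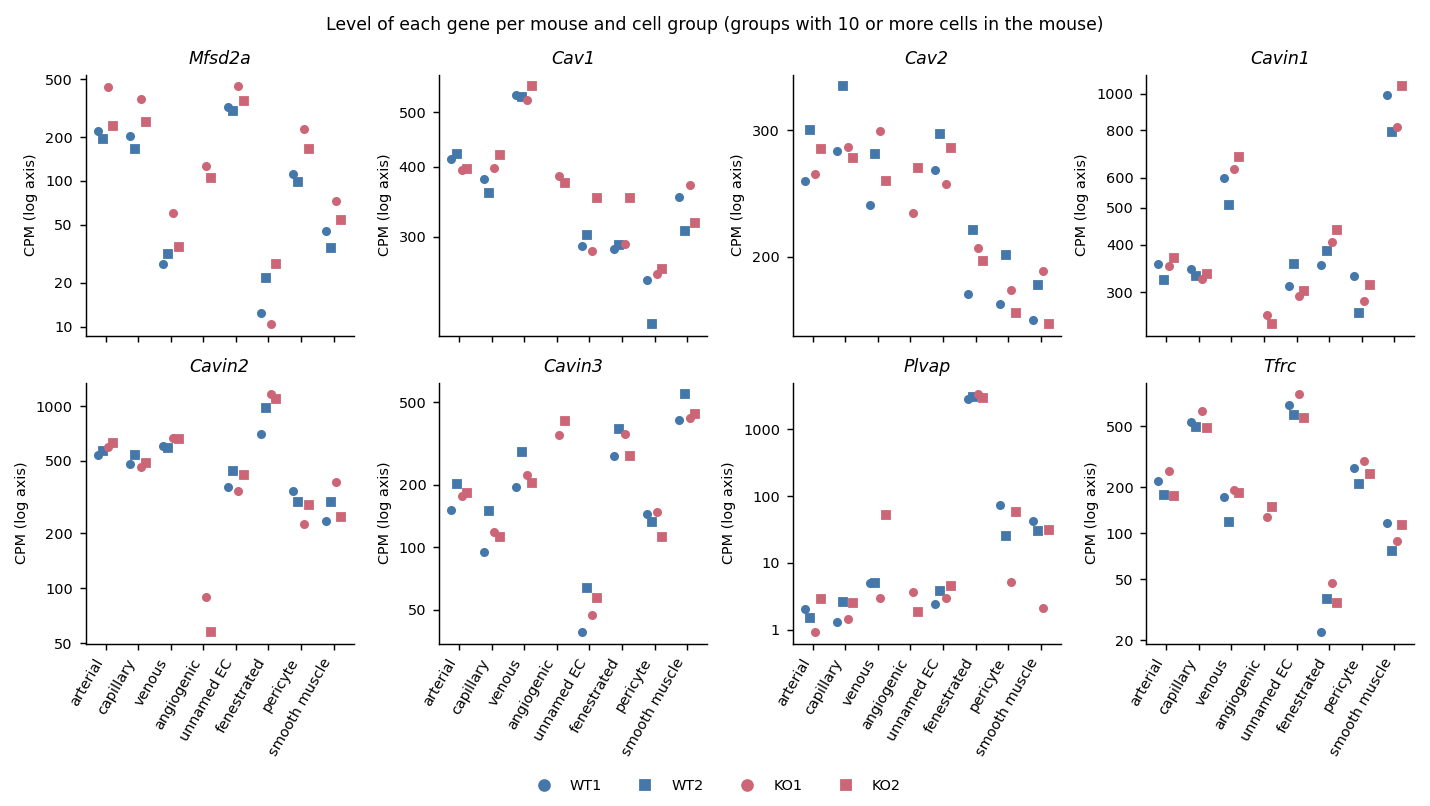
Level of each of the 8 genes (CPM, log axis) by cell group, 1 point per mouse with 10 or more cells in the group. *Plvap* reaches 2856 to 3349.9 CPM in fenestrated cells and at most 73.1 CPM in the other groups, *Mfsd2a* and *Tfrc* are low in venous-like and fenestrated cells, and in angiogenic-like ECs, drawn for the KO mice alone, *Cavin2* is low while *Cavin3* is high.

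*Mfsd2a* was the member with the largest fitted difference between genotypes in brain ECs. Its level was 203 and 155 CPM in WT against 341 and 248 CPM in KO, so that both KO mice were above both WT mice, as was the case for 27.0% of genes tested. The log2 fold change of KO against WT was 0.70 (SE 0.19, 95% interval 0.26 to 1.13), which did not pass the test after adjustment over all genes (edgeR quasi-likelihood test, adjusted p = 0.0768). None of the 8 genes was called in brain ECs as a whole, where 5.93% of 13517 genes were. The call was gained with DESeq2 (adjusted p = 0.00151), without a filter on low counts (0.000380), without KO2 (0.000698), with each cell thinned to 2000 UMIs (0.0302) and with a block for the replicate number, which the female mice and the male mice share (0.70, 0.00884). The KO mouse was above the WT mouse in both pairs, 341 against 203 and 248 against 155 CPM.

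In capillary-like ECs *Mfsd2a* rose. The level was 203 and 166 CPM in WT and 363 and 254 CPM in KO, a log2 fold change of 0.71 (SE 0.16, edgeR adjusted p = 0.0144). It was 1 of the 8 genes called there, against 10.6% of 12451 genes. The share of capillary-like cells with an *Mfsd2a* UMI, at 2000 UMIs per cell, was 33.5% and 27.7% in WT1 and WT2 and 50.0% and 38.3% in KO1 and KO2 (66.8%, 56.5%, 85.3% and 60.1% for all cells, of which thinning left out 44 to 180 per mouse, at median depths of 6389, 5373, 8867 and 4564 UMIs). The share in microglia-like cells was 2.94% to 5.26% (6.42% to 8.12% unthinned, median depths of 3497 to 6265 UMIs). The call was lost without WT2 (0.55, adjusted p = 0.0695) and without KO1 (0.46, adjusted p = 0.254), and with 1 of 3 other random starts of the clustering (0.38, adjusted p = 0.206).

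The capillary-like ECs of the genotypes lay in different clusters. Cluster 3, led by *Cxcl12*, *Ivns1abp* and *Plekhh2* and with *Mfsd2a* among its 10 leading genes although the gene took no part in the clustering, held 7.10% and 3.55% of the capillary-like ECs of WT1 and WT2 but 65.7% and 49.3% of those of KO1 and KO2. Cluster 1, led by *Ndnf* and *Car4*, held 55.6% and 59.4% against 25.4% and 24.8%. Within cluster 3 the level was 395 and 369 CPM in WT and 427 and 328 CPM in KO, and the genotypes overlapped (log2 fold change -0.027, edgeR adjusted p = 0.970, with 1.73% of genes called in that cluster). Within cluster 1 it was 171 and 142 against 229.8 and 141 CPM (0.22, adjusted p = 0.695; 2.32% of genes called). In cluster 4, led by *Ttr* and *Car4*, both KO mice (340.2 and 270.0 CPM) were above both WT mice (265 and 242 CPM) (0.25, adjusted p = 0.826; 0.128% called), and so they were in the unnamed cluster 0, at 445 and 356 against 321 and 301 CPM (0.38, 95% interval 0.10 to 0.66, adjusted p = 0.255; 1.35% called). Without cluster 3 the capillary-like difference was 0.23 (adjusted p = 0.593). In the KO mice both the capillary-like level and the share of cells in cluster 3, the capillary-like cluster with the highest *Mfsd2a* level, were higher. Cluster 3 held 836 and 1104 cells of KO1 and KO2 but 97 and 75 of WT1 and WT2, so its share and the genotype could not be told apart. The part of the cluster shares in the rise was not tested.

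**Figure D2:**
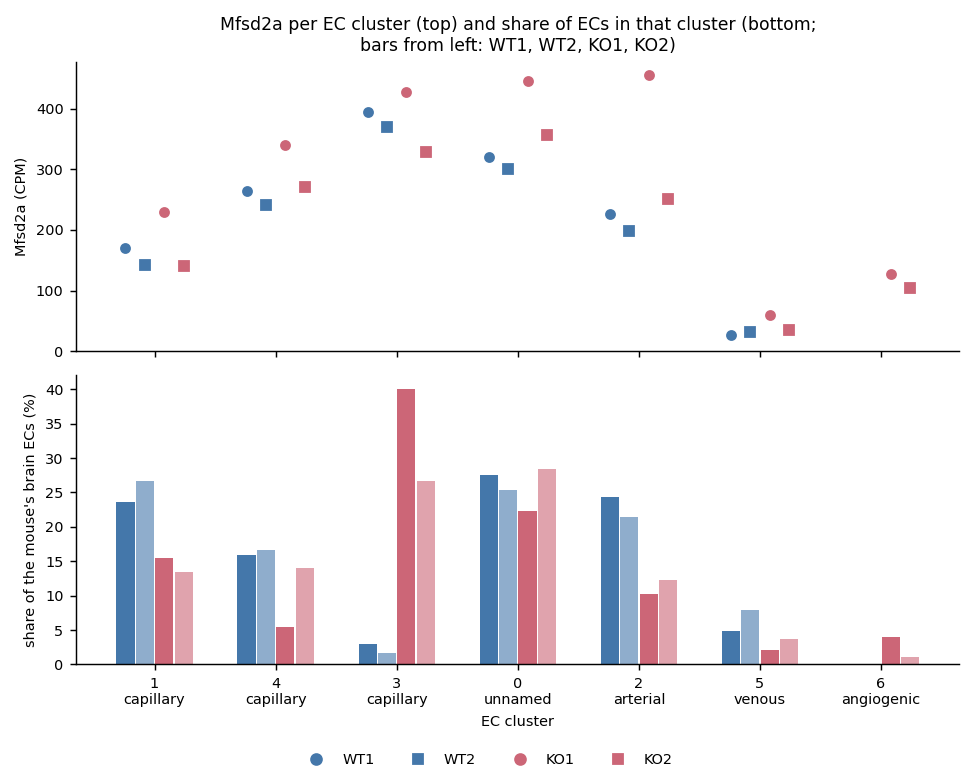
*Mfsd2a* level per mouse (CPM, top) and share of each mouse's brain ECs (%, bottom) in 7 EC clusters, 1 point or bar per mouse, with points only for 10 or more cells. Cluster 3 holds 40.1% and 26.6% of KO but 3.01% and 1.60% of WT brain ECs and has overlapping *Mfsd2a* levels in both genotypes, while in cluster 2, arterial-like, KO1 is highest.

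In arterial-like and venous-like ECs the direction was the same without a call. In arterial-like ECs *Mfsd2a* was at 221 and 194 CPM in WT against 444 and 238 CPM in KO, a log2 fold change of 0.66 (SE 0.19, edgeR adjusted p = 0.0979), where 1.23% of 11135 genes and none of the 7 members tested were called. The arterial-like difference was called with a block for the replicate number (0.61, adjusted p = 0.0107). It was 0.78 without WT1, 0.55 without WT2 and 1.06 without KO2, fits that leave 1 mouse in a genotype. KO2, at 238 CPM, lay nearer to WT1 (221 CPM) than to KO1 (444 CPM). In venous-like ECs it was at 26.9 and 31.4 CPM against 59.9 and 35.0 CPM (0.55, adjusted p = 0.488), near the level in microglia-like cells, and no member was called there against 0.203% of 10336 genes (21 genes, or 96 with a replicate block). In fenestrated cells the genotypes overlapped (-0.02, 95% interval -0.95 to 0.91) and edgeR called 0 of 9702 genes (0%), of which 408 had an unadjusted p under 0.05, while DESeq2 called 6 and a replicate block 13. No difference between the 3 zones in the genotype effect on *Mfsd2a* passed the test (joint test, edgeR adjusted p = 0.854), with intervals of -0.33 to 0.19 for arterial-like minus capillary-like and -0.60 to 0.23 for venous-like minus capillary-like ECs.

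The 5 caveolin and cavin genes showed no genotype difference past the test in any brain EC group. In brain ECs *Cav1* was at 395 and 405 CPM in WT and 392 and 415 CPM in KO (log2 fold change -0.01, 95% interval -0.30 to 0.29), and *Cav2* at 266 and 316 against 275 and 276 CPM (-0.10, interval -0.39 to 0.19). *Cavin1* was at 375 and 373 CPM in WT and 332 and 358 CPM in KO. Both KO mice lay below both WT mice, yet the difference of -0.13 (interval -0.43 to 0.16) was within the error of the fit. *Cavin2* was at 494 and 544 against 438 and 499 CPM (-0.16, interval -0.49 to 0.16) and *Cavin3* at 114 and 183 against 144 and 128 CPM (-0.14, interval -0.57 to 0.29), both with overlapping genotypes. Over the 5 genes the intervals spanned -0.46 to 0.38 in capillary-like, -0.40 to 0.39 in arterial-like and -0.73 to 0.53 in venous-like ECs. Without WT1, *Cav2* (-0.32, adjusted p = 0.0477) and *Cavin3* (-0.39, adjusted p = 0.00959) were called lower in capillary-like ECs. In fenestrated cells *Cavin2* was at 699 and 972 CPM in WT and 1158 and 1096 CPM in KO (0.37, interval -0.03 to 0.78, adjusted p = 0.956), the widest separation of the coat genes there. When every zone was given the same weight, the ratios of mean CPM of *Cavin1* and *Cavin2* turned from -0.12 to 0.07 and from -0.15 to 0.05 (log2).

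**Figure D3:**
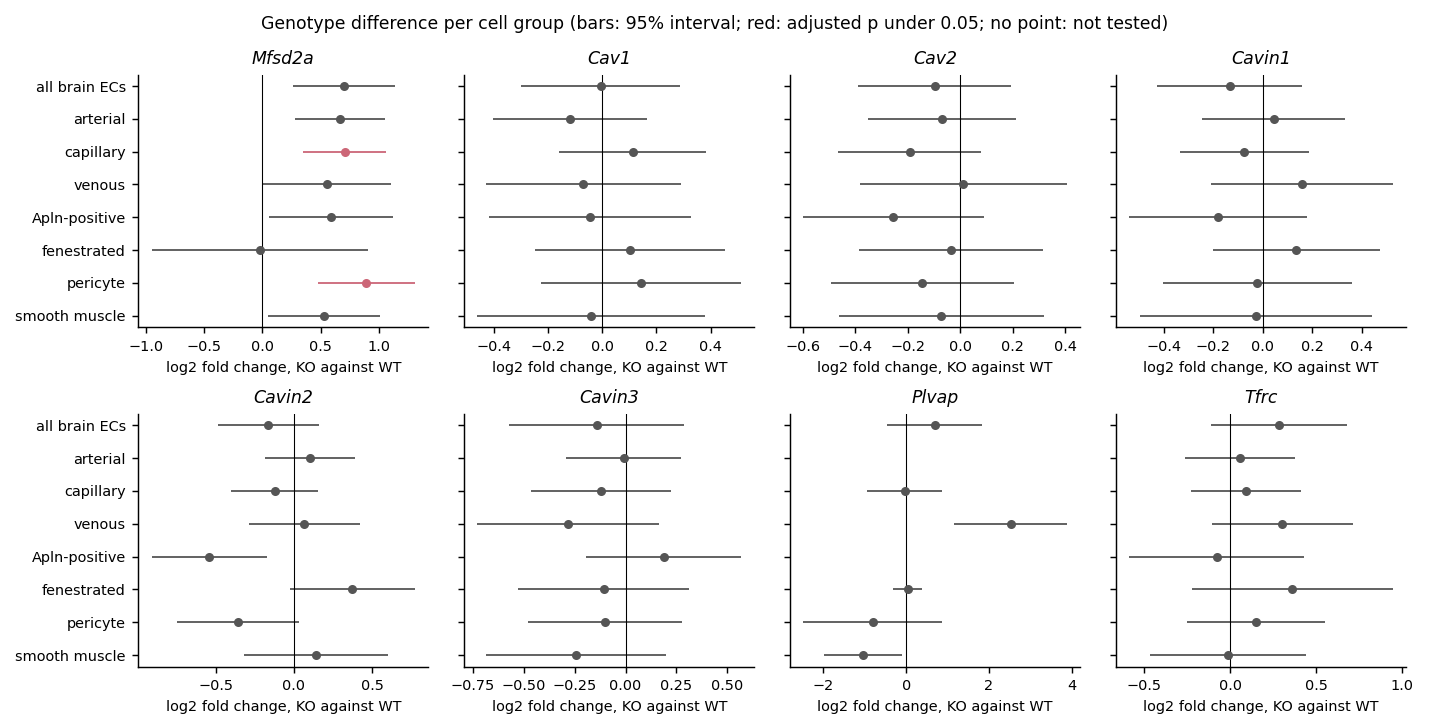
Log2 fold change of KO against WT for each gene (x axis) in each cell group (y axis), with the 95% interval from edgeR as a bar and red for an adjusted p under 0.05. *Mfsd2a* is right of 0 in every group but the fenestrated one and passes in capillary-like ECs and pericyte-like cells, and the caveolin and cavin genes lie around 0 except *Cavin2* in *Apln*-positive ECs.

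*Tfrc* had no genotype difference past the test in any group. In brain ECs it was at 426 and 355 CPM in WT and 542 and 422 CPM in KO, so that WT1 lay above KO2 (log2 fold change 0.28, 95% interval -0.11 to 0.68, edgeR adjusted p = 0.433). In capillary-like ECs, where the receptor was abundant, KO2 had the lowest level of the 4 mice (483 CPM) and KO1 the highest (632 CPM), a difference of 0.09 between genotypes (interval -0.23 to 0.41). In cluster 3 both KO mice were above both WT mice, at 618 and 495 against 452 and 402 CPM (0.37, interval 0.09 to 0.64, adjusted p = 0.222).

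*Plvap* was low in brain ECs of either genotype, at 2.09 and 3.01 CPM in WT and 1.82 and 6.51 CPM in KO (0.68, 95% interval -0.47 to 1.84), and was called only without KO1 (1.33, edgeR adjusted p = 6.11e-05). In fenestrated cells, the diaphragm gene differed by 0.04 (interval -0.31 to 0.38). The exception was the venous-like zone of KO2, with 52.2 CPM against 4.94 in WT1, 4.96 in WT2 and 2.95 in KO1. The genotypes thus overlapped, and the venous-like difference of 2.52 (SE 0.63) was not called (edgeR adjusted p = 0.147). It was called with a replicate block (2.36, adjusted p = 1.55e-05), with library totals alone (0.0216), without a filter (2.47e-12) and at an EC resolution of 0.6 (0.0298). Without KO1, which leaves KO2 as the only KO mouse, the difference was 3.29. A *Plvap* UMI was found in 22 of 154 venous-like cells of KO2 (14.3%, 95% exact binomial interval 9.17 to 20.8), in 2 of 155 of WT1 (1.29%), 12 of 369 of WT2 (3.25%) and 2 of 43 of KO1 (4.65%). At 2000 UMIs per cell the KO2 share was 9.60% of 125 cells, against 0% to 0.545% in the other mice and 0.420% to 2.55% in microglia-like cells (1.51% to 2.58% unthinned). Thinning left out 29 of the KO2 and 1 to 5 of the other mice's venous-like cells. Of the 85 *Plvap* UMIs in KO2, 40 came from 1 cell that also held 248 UMIs of fenestrated markers, where the median venous-like cell of that mouse held 3. Without the top cell of each mouse, KO2 stood at 28.2 CPM and the others at 0.620 to 3.01 CPM.

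The genotype difference of *Plvap* differed between zones, and it was the only member for which this passed the test (joint test over arterial-, capillary- and venous-like ECs, edgeR adjusted p = 0.0172, where 5.07% of 12461 genes were called). The venous-like difference exceeded the capillary-like one by 2.38 log2 units (SE 0.57). The result rested on KO2: without that mouse the difference was -0.31 (adjusted p = 0.963). It was also lost without WT2 (adjusted p = 0.352) and with DESeq2 (adjusted p = 0.426), and held without the top cell of each mouse (adjusted p = 0.0268). The venous-like cells of KO2 differed in depth from those of the other mice, with a median of 5399 against 17362 to 17869 UMIs, and had the highest sums of the 12 fenestrated (659 against 433 to 568 CPM) and the 12 pericyte markers (870.1 against 312 to 492 CPM), none of them at 0 over the 4 mice. The part of these in the *Plvap* level was not tested.

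*Apln*, which encodes the peptide apelin, marks sprouting endothelium. ECs with at least 1 *Apln* UMI made up 1.18% and 1.36% of brain ECs in WT1 and WT2 (38 and 64 cells) and 18.8% and 7.43% in KO1 and KO2 (391 and 308 cells), at median depths of 5432, 4510, 7519 and 3886 UMIs. With each cell thinned to 2000 UMIs the shares were 0.362% and 0.437% in WT and 9.88% and 4.29% in KO, with 111 to 604 cells left out per mouse. In microglia-like cells, which should lack the gene, the thinned share was 0% in both WT mice (0 of 157 and 0 of 133 cells, which allows up to 1.91% and 2.26%) and 0.840% and 1.40% in KO (0.481%, 0.617%, 4.15% and 1.85% unthinned). The WT shares of thinned brain ECs were thus within what microglia-like cells allow, and the KO shares were above the microglia-like share of the same mouse, with 95% exact binomial intervals that overlapped in KO2 (3.65 to 5.01 against 0.290 to 4.04) and not in KO1 (8.60 to 11.3 against 0.102 to 3.00). Within the KO mice, 4 of the 8 members were called, 3 lower and 1 higher in these cells relative to *Apln*-negative ECs of the same mouse, a comparison in which 26.0% of 12310 genes were called. *Mfsd2a* fell from 385 to 249 CPM in KO1 and from 260 to 166 CPM in KO2 (log2 fold change -0.62, SE 0.08, edgeR adjusted p = 2.09e-14). *Tfrc* fell from 607 to 406 CPM and from 437 to 320.4 CPM (-0.51, SE 0.08, adjusted p = 1.14e-09). The coat genes split: *Cavin2* fell from 489 to 332 CPM and from 516 to 388 CPM (-0.48, SE 0.08, adjusted p = 1.04e-08), whereas *Cavin3* rose from 115 to 205 CPM and from 117 to 201 CPM (0.82, SE 0.07, adjusted p = 3.96e-26). *Cav1* (0.07, 95% interval -0.08 to 0.22), *Cav2* (-0.09, interval -0.23 to 0.06) and *Cavin1* (-0.0024, interval -0.15 to 0.15) were not called, nor was *Plvap* at 1.70 to 7.12 CPM. In the WT mice, with 38 and 64 *Apln*-positive cells, *Mfsd2a* stood at 178 and 108 against 203 and 157 CPM in *Apln*-negative ECs, *Cavin3* at 142 and 207 against 114 and 182 CPM, *Cavin2* at 483 and 557 against 494 and 544 CPM and *Tfrc* at 485 and 288 against 425 and 357 CPM. *Mfsd2a* was thus lower and *Cavin3* higher in both WT mice, whereas *Cavin2* and *Tfrc* went opposite ways in them. No test was made of the WT mice. Of the *Apln*-positive ECs of WT1 and WT2, 13.2% and 32.8% were venous-like. Without the venous-like ones, *Mfsd2a* stood at 217 and 195 CPM and *Cavin3* at 114 and 168 CPM in *Apln*-positive WT cells. *Mfsd2a* was then not below the *Apln*-negative values, which include venous-like ECs, and *Cavin3* was not higher in WT2.

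This comparison rests on 2 mice, and the spread behind its errors is pooled over genes, with 1 residual degree of freedom. The 2 classes also differed in zone mix. Of the *Apln*-positive ECs of KO1 and KO2, 69.8% and 68.8% were capillary-like and 5.12% and 10.7% unnamed. Of all brain ECs of these mice, 61.1% and 54.0% were capillary-like. The unnamed ECs, where *Mfsd2a* and *Tfrc* were highest, made up 22.3% and 28.4%. Cluster 3, the capillary-like cluster with the highest *Mfsd2a* level, held 56.5% and 51.0% of the *Apln*-positive ECs of KO1 and KO2. Of all their brain ECs it held 40.1% and 26.6%. The part of this mix in the differences was not tested. Member values against capillary-like *Apln*-negative ECs alone are not given here. Without the mouse term the calls of *Mfsd2a* (adjusted p = 0.163) and *Tfrc* (adjusted p = 0.134) were lost, and those of *Cavin2* (0.0336) and *Cavin3* (0.00186) were not. *Apln*-positive cells were deeper (median 12625 against 6965 UMIs in KO1 and 5881 against 3794 in KO2), and with each cell thinned to 2000 UMIs all 4 calls held. All 4 also held without the angiogenic-like cluster, which supplied 82 and 40 of the *Apln*-positive cells of KO1 and KO2, but the difference then came down from 0.82 to 0.34 for *Cavin3* and from -0.48 to -0.17 for *Cavin2*.

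**Figure D4:**
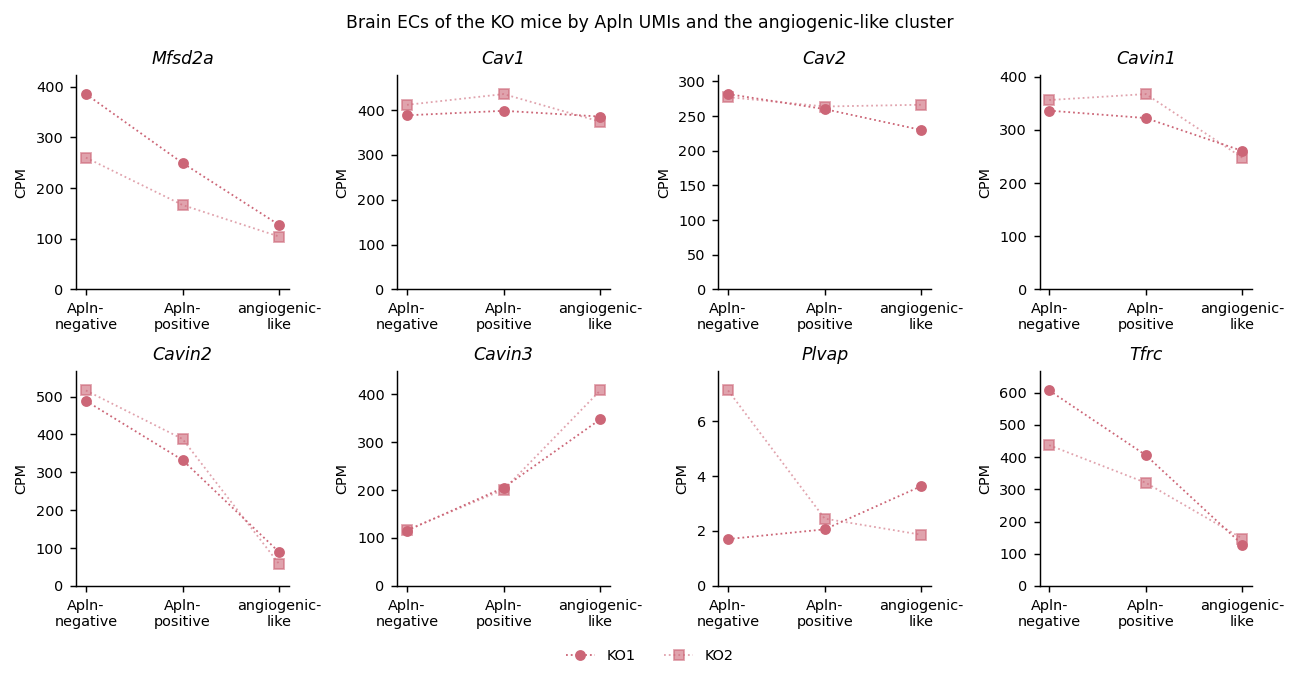
Level (CPM, axis from 0) of each gene in *Apln*-negative, *Apln*-positive and angiogenic-like ECs of KO1 (circles) and KO2 (squares), where most angiogenic-like cells are also *Apln*-positive. *Mfsd2a*, *Cavin2* and *Tfrc* fall from left to right in both mice and *Cavin3* rises, while *Cav1* and *Cav2* stay between 229.9 and 436 CPM. *Cavin1* has KO means of 346, 345 and 254 CPM from left to right.

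Between genotypes, *Apln*-positive ECs showed no call among the 7 members tested, against 9.85% of 10080 genes. *Cavin2* came nearest, at 483 and 557 CPM in WT and 332 and 388 CPM in KO (-0.54, SE 0.17, edgeR adjusted p = 0.0675), with both KO mice below both WT mice. *Mfsd2a* was at 178 and 108 CPM in WT and 249 and 166 CPM in KO (0.59, adjusted p = 0.174), with WT1 above KO2. Without WT1 both were called (*Cavin2* adjusted p = 0.0366, *Mfsd2a* 0.0204), as was *Mfsd2a* without KO2 (0.00692). Venous-like cells made up 13.2% and 32.8% of the *Apln*-positive ECs of WT1 and WT2 and 1.79% and 4.55% of those of KO1 and KO2. Without them the *Mfsd2a* difference shrank to 0.09 (adjusted p = 0.860) and that of *Cavin2* was called (-0.61, adjusted p = 0.0193), while *Tfrc* stood at 595 and 461 CPM in WT and 413 and 329 CPM in KO (-0.51, adjusted p = 0.101).

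In mural cells, the pericytes and smooth muscle cells that wrap the endothelium, 1 of 8 members was called between genotypes in pericyte-like cells (5.33% of 9884 genes) and 0 in smooth muscle-like cells (0.0195% of 10253 genes, or 2 genes, with 570 at an unadjusted p under 0.05 1 gene called by DESeq2 and 32 with a replicate block). *Mfsd2a* in pericyte-like cells was at 112 and 98.5 CPM in WT and 228 and 166 CPM in KO (0.89, SE 0.19, edgeR adjusted p = 0.0174), and the call was lost without WT2 (adjusted p = 0.137) or KO1 (adjusted p = 0.197). The pericyte-like cells carried all 7 endothelial markers at a summed 7242 to 8049 CPM, against 11623 to 12652 CPM in brain ECs. In the 310 pericyte-like cells with at most 5 endothelial marker UMIs, 1 of the 1331 *Mfsd2a* UMIs of the group was counted, and none in the 183 cells without a UMI of *Slc2a1*, *Slco1a4*, *Cldn5* or *Ly6c1*, which allows a share of cells with a UMI of up to 1.64%. The *Mfsd2a* UMIs of the pericyte-like group thus lay, but for 1, in cells with more than 5 endothelial marker UMIs. Cells with at most 5 were 48 of 74 in WT1, 99 of 146 in WT2, 69 of 174 in KO1 and 94 of 209 in KO2. Median depths of all pericyte-like cells were 4526, 3678.5, 12218 and 5016 UMIs in that order. The part of this make-up in the *Mfsd2a* difference was not tested. *Plvap*, at 73.1 and 25.4 CPM in WT and 5.21 and 58.5 CPM in KO, was not called in pericyte-like cells with all 4 mice. Its difference there was -3.16 without KO2. In smooth muscle-like cells it was -4.21 without KO2 and -1.28 without WT2. Each of these 3 fits leaves 1 mouse in a genotype.

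Mural cells with little endothelial RNA held *Cavin1* and *Cavin3* but little *Cavin2*. In the 310 pericyte-like cells, *Cavin1* stood at 377 and 265 CPM in WT and 232 and 425 CPM in KO and *Cavin3* at 171 and 160.4 against 40.5 and 150.3 CPM, while *Cavin2* came down from 226 to 343 CPM in all pericyte-like cells to 8.10 to 29.3 CPM. *Cav1* was at 43.2 to 128 CPM and *Tfrc* at 19.6 to 23.5 CPM there. In the 448 smooth muscle-like cells under the same limit, *Cavin1* reached 919 to 1293 CPM and *Cavin3* 549 to 714 CPM, *Cav1* stood at 179.9 to 246 CPM, *Cavin2* was at 0 to 11.9 CPM and *Mfsd2a* at 0 to 5.53 CPM. *Cavin1* and *Cavin3* were thus the coat genes of mural cells with little endothelial RNA, and *Cavin2*, at most 29.3 CPM, was not. All microglia-like cells, without a limit on endothelial marker UMIs, held 26.3 to 80.9 CPM of *Cavin1* and 7.44 to 37.1 CPM of *Cavin3*. The mural levels were above these, but *Cavin3* in pericyte-like cells of KO1 (40.5 CPM, 15 UMIs) only just.

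**Figure D5:**
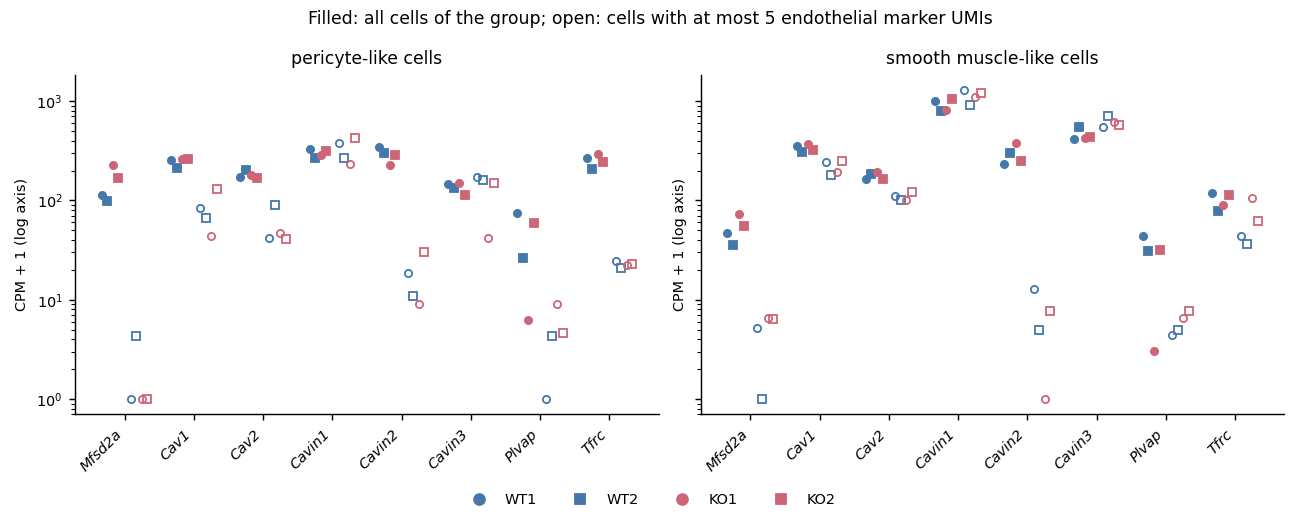
Level of each gene in pericyte-like and smooth muscle-like cells (CPM + 1, log axis), filled for all cells and open for cells with at most 5 endothelial marker UMIs, 1 point per mouse. *Mfsd2a* and *Cavin2* drop in the open points of every mouse, to at most 5.53 and 29.3 CPM, and *Cavin1* stays at 232 CPM or above.

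A further 104 genes of the same pathways were read from the same fits. In brain ECs 1 of 98 tested was higher and 4 were lower in KO, so that 5.10% of the listed genes were called, near the 5.93% of all genes. The medians of the 7 lists, which cover caveola partners, clathrin adaptors, transcytosis receptors, iron handling, recycling Rabs, lipid transport and barrier identity, ranged from -0.08 to 0.10, against -0.02 over all genes. The 1 gene that rose was *Ehd4*, an ATPase of endosomal recycling, from 82.2 and 89.5 CPM in WT to 148 and 144 CPM in KO (log2 fold change 0.75, SE 0.10, edgeR adjusted p = 0.00508). *Rab4a*, a GTPase of rapid recycling from early endosomes, fell from 26.4 and 31.1 CPM to 14.1 and 12.6 CPM (-1.12, SE 0.13, adjusted p = 0.00354). *Sox17*, a transcription factor of arterial and barrier endothelium (-0.57), *Slc27a1*, a fatty acid transporter (-0.72), and *Fth1*, the heavy chain of the iron store ferritin (-0.88), also fell. In arterial-like ECs 2 of 93 were higher and 1 was lower, or 3.23% against 1.23% of all genes. These were *Ehd4* (0.59), the insulin receptor gene *Insr* (0.60) and *Rab4a* (-1.15). In venous-like ECs none of 89 was called, where only 0.203% of all genes were.

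In capillary-like ECs 5 of 92 pathway genes were higher and 7 lower, or 13.0% against 10.6% of all genes, with *Ehd4* (1.02) and *Rab4a* (-1.30) again first. The iron genes went both ways: *Trf*, which encodes transferrin, the ligand of TFRC, was at 3.85 and 3.38 CPM in WT and 8.84 and 6.59 CPM in KO (1.07), the ferroxidase gene *Heph* rose (0.88), and *Fth1* fell (-0.64). *Sox17* (-0.57) and *Dnm3*, which encodes a dynamin (-0.55), fell too. In *Apln*-positive ECs 2 of 87 were higher and 7 lower in KO, or 10.3% against 9.85% of all genes, with *Trf* at 6.86 CPM in both WT mice and 36.9 and 25.2 CPM in KO (2.22) and the neonatal Fc receptor gene *Fcgrt* lower (-0.73). No list gene was called in fenestrated (90 tested) or smooth muscle-like cells (89 tested), where 0% and 0.0195% of all genes were. In pericyte-like cells 3 of 89 were higher and 5 lower (8.99%, against 5.33% of all genes). Among them were *Insr* (0.69), *Fcgrt* (-0.90), *Lepr* (-1.46) and the lactate transporter gene *Slc16a1* (-0.99). These pericyte-like cells carried the endothelial markers at a summed 7242 to 8049 CPM. In those with at most 5 endothelial marker UMIs 6 genes were called, against 527 in all of them, and the part of endothelial RNA in the listed genes' differences was not tested.

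Within the KO mice, 10 of 93 pathway genes were higher and 30 lower in *Apln*-positive than in *Apln*-negative ECs, or 43.0% against 26.0% of all genes, of which 1818 were higher and 1385 lower. Of the 16 barrier identity genes 13 fell and none rose (median -0.38, against -0.01 over all genes), with *Slc16a1* (-0.89), *Sox17* (-0.69) and the thyroxine transporter gene *Slco1c1* (-0.64) first by p. *Trf* rose from 6.62 to 36.9 CPM in KO1 and from 5.39 to 25.2 CPM in KO2 (2.39, SE 0.15, adjusted p = 1.40e-54), in the cells in which its receptor gene *Tfrc* was lower. Of the 16 transcytosis receptors 3 rose and 7 fell (median -0.24), and of the 12 caveola partners tested 1 rose and 3 fell, *Dnm3* among them (-0.62). These list counts are from the main fit on 2 mice, whose classes differed in zone mix. It called 3203 genes, against 1197 without the mouse term and 970 after thinning, and list counts in those fits are not given here.

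Over the same 41 sums and 6712 genes with a mean of at least 20 CPM, the pattern most like that of *Mfsd2a* was that of *Lrrn3* (r = 0.98), then *Slco1c1* and *Acsl3* (0.94 and 0.93). *Plvap* was nearest to *Col13a1* (0.97), *Tfrc* to *Grb14*, *Ndnf* and *Slc38a3* (0.94 each) and *Cavin2* to *Gas6* (0.94). The nearest patterns to *Cavin1* (*Ehbp1l1*, 0.86), *Cavin3* (*Atpif1*, 0.85), *Cav2* (*Rassf9*, 0.82) and *Cav1* (*Tshz1*, 0.77) were less alike. These correlations are descriptions over sums that share mice and cells.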

How the data were processed

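The deposited values were UMI counts per gene and cell barcode, 1 matrix per mouse. Per the labels the authors made them with Cell Ranger 6.1.2 on the mm10 genome, with barcodes called as cells. The study's test on single cells was not used, because cells of 1 mouse are not replicates.

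Cells with over 500 genes and under 10% mitochondrial UMIs were kept. Seurat 5.3.0 (R 4.3.3; 2000 variable genes, 50 principal components, resolution 0.2 for all cells and 0.4 for ECs) clustered the cells without 159 genes, the 8 members and the pathway lists among them, and clusters were named from marker lists. The EC partition varied with the random start, so 3 other starts were run. No doublet caller was used. Cells holding markers of other types were left out in alternatives instead. UMIs were summed per mouse and cell group and tested with edgeR 4.0.16 (quasi-likelihood, filterByExpr, TMM) with Benjamini-Hochberg adjustment over all genes tested at a threshold of 0.05. DESeq2 1.42.0 was an alternative. The comparison within KO mice had a mouse term and did not test *Apln*. The fits were tested on simulated data. Replicates were separate mice, and groups had 2 mice each.

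Named were all 8 members, called pathway genes among the 6 of smallest adjusted p per comparison, and up to 3 of the genes most correlated with each member. *Fth1* in capillary-like ECs, at rank 7, was named as well. The members, lists and alternatives were chosen with earlier results of these data known. The marker genes of angiogenic ECs had been chosen by the study on these libraries.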

Additional observations from a re-analysis of the deposited data

Results flagged for a closer look

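The genotype difference of *Plvap* was not the same in the arterial-, capillary- and venous-like ECs by a test of that difference over the 3 zones (edgeR, adjusted p = 0.0172). The venous-like level was 52.2 CPM in KO2 and 2.95 to 4.96 CPM in the other 3 mice, and without KO2 the venous minus capillary difference changed sign (-0.31).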

How the results depend on the processing

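Of 875 values of the 8 genes under alternatives, 835 had the same call or lack of one (103 of those without a call changed sign), 12 lost and 26 gained a call, and 2 changed sign with a call: *Mfsd2a* in capillary-like cluster 3 alone (-0.027) and *Plvap*'s zone difference without KO2 (-0.31, against up to 3.06 without another mouse). Same-numbered mice shared their sex. Deviations of same-numbered mice correlated at -0.167 (fenestrated) to 0.202 (capillary-like). Without sex genes they correlated at -0.282 (fenestrated) to -0.00177 (*Apln*-positive). The study names separate experiments, but whether the replicate number marks one is not given in the sources used here. With that number as a block, which changed no other call of a member, the calls of *Mfsd2a* in brain ECs (0.70, adjusted p = 0.00884) and arterial-like ECs and of *Plvap* in venous-like ECs were gained, and 96 genes were called in venous-like ECs (21 without), 13 in fenestrated (0) and 32 in smooth muscle-like cells (2). Crossed, the block gave 50 in fenestrated cells. When all zones weighed the same, the log2 ratios of mean CPM of *Cavin1* and *Cavin2* became 0.07 and 0.05. The cause of these changes was not tested.

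Counts of genes called moved more than calls of members. DESeq2 called 76 in arterial-like (main 137), 67 in venous-like, 564 in *Apln*-positive (993), 6 in fenestrated, 298 in pericyte-like (527) and 1 in smooth muscle-like cells, 342 for the zone difference (632) and 1074 within KO (3203). Library totals alone gave 78 in venous-like and 0 in smooth muscle-like cells. No filter gave 1606 in brain ECs (802), 3 in arterial-like, 214 in venous-like, 56 in fenestrated, 916 in pericyte-like and 47 in smooth muscle-like cells. Leaving out 1 mouse gave 226 to 1509 in brain ECs, 123 to 494 in arterial-like, 812 to 2085 in capillary-like (1316), 15 to 141 in venous-like, 308 to 1122 in *Apln*-positive, 0 to 7 in fenestrated, 226 to 744 in pericyte-like and 34 to 72 in smooth muscle-like cells, and 302 to 617 for the zone difference. Within KO, 1197 were called with no replicate block, 970 after thinning and 1232 without the angiogenic-like cluster. Brain ECs gave 534 without *Apln*-positive cells, 251 without cluster 3, 144 in cluster 0 and 3 without cells holding other types' markers (18 to 213 cells a mouse left). Capillary-like ECs gave 295 without cluster 3 and 266, 187 and 12 in clusters 1, 3 and 4 alone. Resolution 0.6 gave 22 in arterial-like and 39 in venous-like ECs. Random start 1 gave an angiogenic-like cluster of 1865 cells, mostly KO, and 344 in capillary-like (*Mfsd2a* 0.38, adjusted p = 0.206) and 4 in venous-like ECs and 142 for the zone difference. With at most 5 endothelial marker UMIs, 6 were called in pericyte-like and 12 in smooth muscle-like cells, and 3 in pericyte-like cells free of *Slc2a1*, *Slco1a4*, *Cldn5* and *Ly6c1*. The fenestrated fit on cells without other types' markers was not run, with 1 to 16 cells a mouse. Clusters left out or taken alone, random starts, the crossed block, cells free of the 4 genes, and ECs without the venous-like ones or the top *Plvap* cells were chosen after seeing the data.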
